A study of Mus musculus with 6 samples.

Results

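The 37 genes described here are named for the nuclear subunits of respiratory complex I, the NADH dehydrogenase of the inner mitochondrial membrane, although 1 of them, *Ndufa4*, is now assigned to complex IV. They were taken by name alone from a table of 14897 genes, as every row whose symbol begins with Ndufa, Ndufb, Ndufc, Ndufs or Ndufv, and the 7 rows beginning with Ndufaf, which are assembly factors, were left out. Their mRNA was measured by poly(A) RNA sequencing in cells of spontaneous mammary tumors from mice of the FVBN strain that carry MMTV-PyMT, a transgene in which the mouse mammary tumor virus promoter drives the polyoma virus middle T oncogene. Each of 2 tumors was dissociated and sorted by FACS into CD29hi CD61+ breast cancer stem cells (P1), ALDH+ breast cancer stem cells (P2) and the cells that remained, the bulk cancer cells (P0), which gave 6 libraries. Where a pair of values is given for a population, tumor 1 comes first and tumor 2 second. All 3 populations carried the same oncogene, none had a treatment in the labels, and the age of the mice is not given there. The labels do not say whether the tumors came from separate mice, so every p-value below measures only the spread between these libraries, which may be technical.

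Complex I takes electrons from NADH and passes them through a flavin and a chain of iron-sulfur clusters to ubiquinone, and it uses the energy released to pump protons across the inner membrane. Its N module holds the NADH site, its Q module holds the quinone site, and its membrane arm, with a proximal and a distal part, holds the proton channels. The core subunits carry the cofactors and channels and are shared with bacteria, and the accessory subunits surround them and are needed for assembly and stability. The core subunits encoded by mitochondrial DNA were not analysed here. In proliferating tumor cells the complex also renews the NAD+ that aspartate synthesis needs.

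The libraries held 19037070 to 48008802 reads in genes, and all 37 subunit genes were among the 12512 genes tested, those with at least 1 RPKM (reads relative to gene length and to library depth) in at least 2 libraries. Genes without any read numbered 3290 (P0), 1947 (P1) and 3904 (P2) in tumor 1, and 446, 360 and 759 in tumor 2. Among the subunit genes, 6 were under 0.1 RPKM in P0 of tumor 1, 2 in its P1 and 3 in its P2 library, and none was in tumor 2. These 11 values rested on 1 read or none. In tumor 1 this was 16.2%, 5.41% and 8.11% of the subunit genes for P0, P1 and P2, beside 15.1%, 5.76% and 19.2% of all tested genes. Of the 1162 tested genes of up to 1000 bp, a class that holds 25 of the 37 subunit genes, 40.5% were under 0.1 RPKM in P0 of tumor 1 and 3.70% in P0 of tumor 2.

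All 8 luminal epithelial markers, which the labelled tissue should express, were detected in every library. Their sums were 20908 and 18145 RPKM for P0, 14429 and 13974 for P1 and 26404 and 18367 for P2. The 6 basal markers summed to 236 and 261 RPKM for P0, to 627 and 763 for P1 and to 492 and 350 for P2. The 8 fibroblast markers stood at 1.38 and 6.33 for P0, at 8.10 and 86.8 for P1 and at 74.8 and 420.2 for P2, with 5, 3, 2 and 2 of them at 0 in P0 of tumors 1 and 2 and in P1 and P2 of tumor 1, and none at 0 in the other libraries. For the 6 macrophage markers in the table, sums ran from 3.19 to 20.4 RPKM in P0, from 6.12 to 31.6 in P1 and from 14.7 to 19.4 in P2, and 5, 4 and 3 of them were at 0 in P0, P1 and P2 of tumor 1. The lymphocyte and endothelial markers in the table summed to at most 2.23 and 1.29 RPKM. Of the skeletal muscle markers 1 was matched, *Acta1*, the actin of skeletal muscle, at 239.6 and 94.0 RPKM for P0, 57.3 and 110.3 for P1 and 190.1 and 167.6 for P2. Most of the basal sum of P2 was *Krt14*, at 471 and 339 RPKM, against 224 and 245 in P0. *Krt5*, *Trp63* and *Acta2* differed between P2 and P0 in opposite directions in the tumors. *Myh11* was lower in P2 in both tumors, and *Oxtr* reached only 0.184 RPKM in P2. The basal and fibroblast sums thus differed with the sort in both tumors. So did the luminal sum, which was lowest in P1 of each tumor, and *Acta1* also differed between libraries. The part of these in the results below was not tested. In such sorted pools, fewer cells of a type and less RNA per cell cannot be told apart.

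The subunit genes differed widely in level, and their order was mostly kept from library to library in tumor 2. The highest, *Ndufa4*, had a mean of 461 RPKM over the 6 libraries, and the lowest, *Ndufa11*, a membrane arm subunit, had 3.20, a 144-fold range. The median subunit gene stood at 16.2 and 23.3 RPKM for P0, where the median tested gene had 7.95 and 8.62. Spearman correlations of the 37 levels between libraries were 0.873 to 0.922 within tumor 2 and 0.609 to 0.796 within tumor 1, as a description over genes that share each library's depth.

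**Figure D1:**
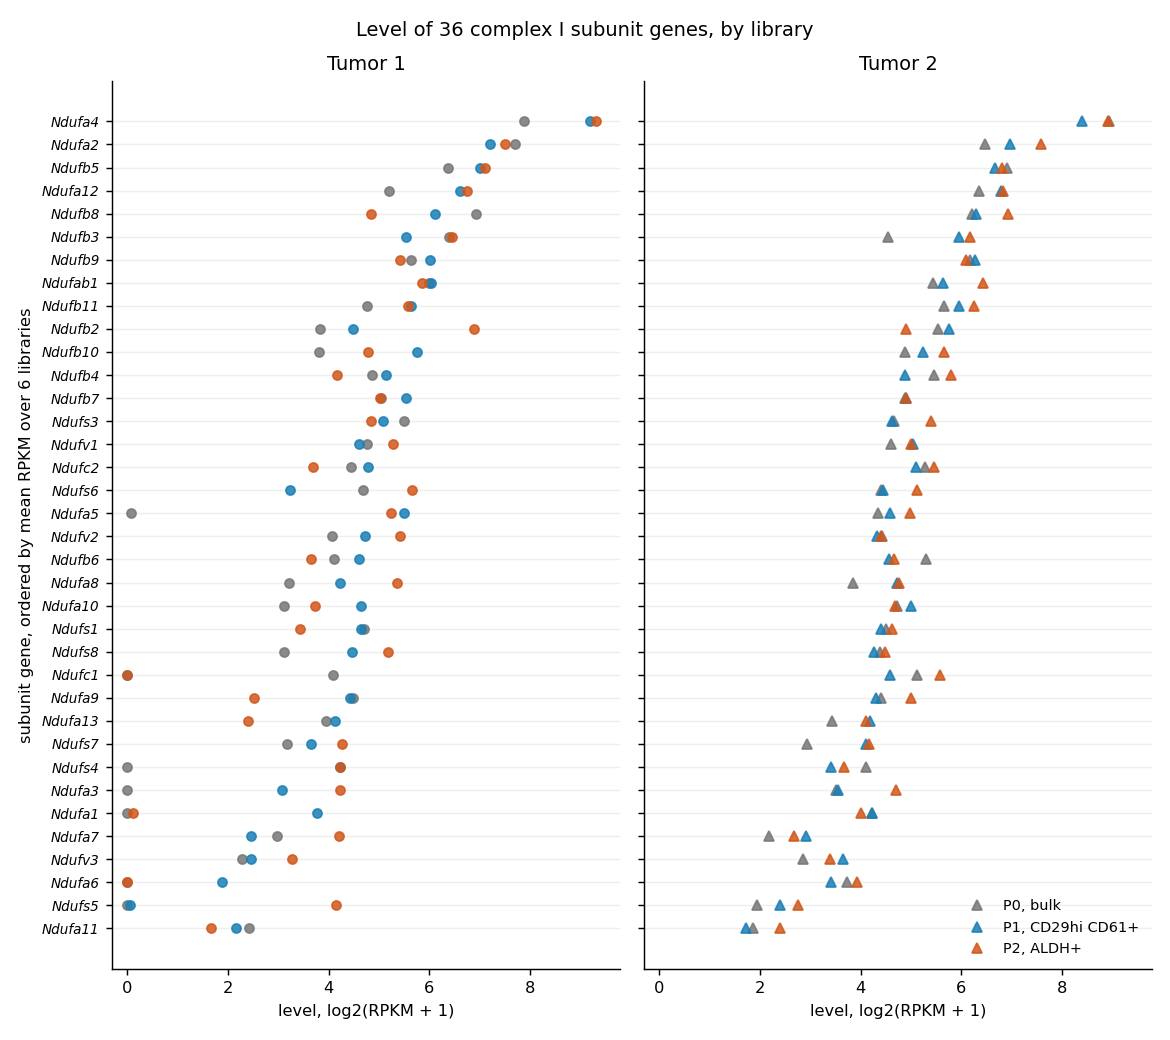
Level of 36 of the subunit genes as log2(RPKM + 1), ordered by mean RPKM, with tumor 1 on the left and tumor 2 on the right, and 1 point per population (P0 grey, P1 blue, P2 orange). Points at or near 0 are found in tumor 1 only, and they number 6 in P0, 2 in its P1 and 3 in its P2 library.

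*Ndufa4* was the most abundant of the subunit mRNAs in every library. It was first described as a complex I subunit and is now assigned to complex IV, cytochrome c oxidase. Its level was 234 and 491 RPKM for P0, 588 and 338 for P1 and 632 and 484 for P2. It was therefore higher in both stem cell populations of tumor 1 and in neither of tumor 2, at 2.51-fold and 2.70-fold the P0 level in tumor 1 and at 0.687-fold and 0.985-fold in tumor 2. The fitted log2 fold changes on log2(RPKM + 1) were 0.39 ± 0.46 (SE) in P1 and 0.70 ± 0.46 in P2, and neither passed the test (limma, unadjusted p = 0.415 and 0.161).

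Summed over the 37 genes, subunit mRNA was highest in ALDH+ cells in both tumors. The sum was 1286 and 1626 RPKM for P0, 1822 and 1597 for P1 and 1972 and 2042 for P2. As a share of all reads this was 0.0998% and 0.120% for P0, 0.135% and 0.121% for P1 and 0.141% and 0.150% for P2. P2 stood at 1.53-fold and 1.26-fold of P0, so that the P2 values did not overlap those of P0, while P1 stood at 1.42-fold and 0.982-fold, and the P1 values did overlap those of P0. *Ndufa4* alone made up 18.2% to 32.2% of the sum. Without it, P1 was at 1.17-fold and 1.11-fold of P0 and P2 at 1.27-fold and 1.37-fold, and P1 lay under P2 in both tumors with or without it (0.924-fold and 0.782-fold with it, 0.921-fold and 0.808-fold without). The sums without it were 1052 and 1135 RPKM for P0, 1235 and 1259 for P1 and 1340 and 1558 for P2. Neither the P1 nor the P2 values then overlapped those of P0. With 2 libraries a group these sums are a description without a test.

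**Figure D2:**
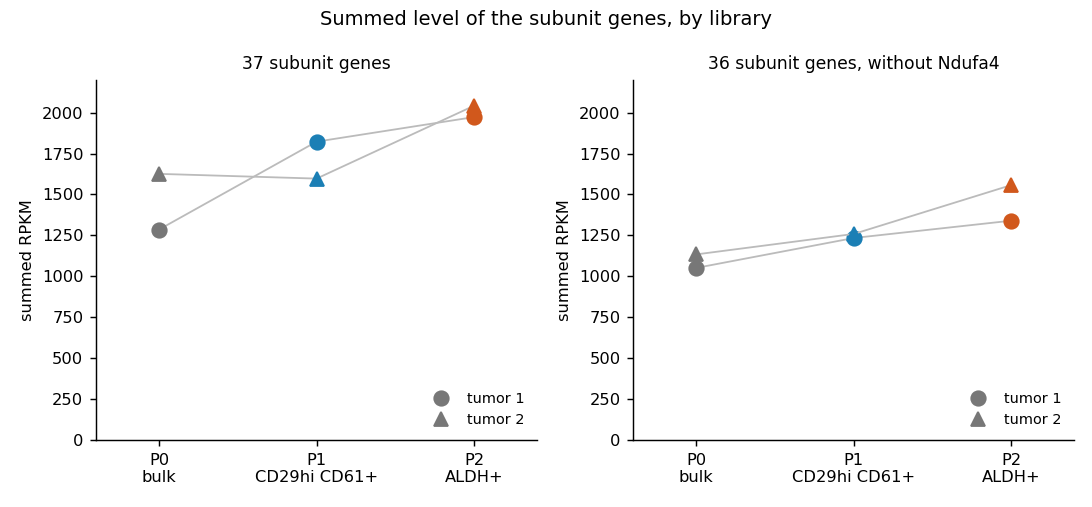
Summed RPKM of the subunit genes in each library, with all 37 genes on the left and without *Ndufa4* on the right. Circles are tumor 1, triangles are tumor 2, colors are the populations and grey lines join the libraries of a tumor. The P2 points are the highest of each tumor, and the order of P0 and P1 in tumor 2 turns when *Ndufa4* is left out.

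The N module, which takes up electrons from NADH, held 10 of the genes, and its sum was 345 and 291 RPKM for P0, 354 and 362 for P1 and 472 and 452 for P2. *Ndufv1*, which encodes the subunit that binds NADH and the flavin, was at 26.2 and 23.3 RPKM for P0, 23.5 and 31.8 for P1 and 37.6 and 31.1 for P2. *Ndufv2*, an iron-sulfur subunit beside it, was at 15.8 and 20.4 for P0, 25.5 and 19.0 for P1 and 41.9 and 20.2 for P2. Both P2 values of *Ndufv1* were above both P0 values, and those of *Ndufv2* overlapped them. *Ndufs1*, which carries the further iron-sulfur clusters of the module, was at 25.0 and 21.7 RPKM for P0, 23.9 and 20.2 for P1 and 9.82 and 23.8 for P2, so only the P2 library of tumor 1 stood apart, below the rest. Among accessory subunits of the module, *Ndufa2* was the second most abundant member at 207 and 87.2 RPKM for P0, 147 and 124 for P1 and 182 and 190 for P2, and *Ndufa6* was among the 3 lowest, at 0 and 12.2 for P0, 2.68 and 9.60 for P1 and 0 and 14.3 for P2.

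The Q module, which hands electrons to ubiquinone, held 6 genes with sums of 110.0 and 128 RPKM for P0, 174 and 137 for P1 and 162 and 181 for P2. *Ndufs3*, a core subunit without a cofactor, was at 44.5 and 24.3 for P0, 32.7 and 23.6 for P1 and 27.9 and 41.4 for P2. Its values overlapped in all 3 populations. The iron-sulfur subunits were *Ndufs8*, at 7.69 and 19.8 RPKM for P0, 21.1 and 18.2 for P1 and 35.4 and 21.5 for P2, and *Ndufs7*, which holds the last cluster before the quinone, at 8.02 and 6.65 for P0, 11.6 and 16.2 for P1 and 18.2 and 16.9 for P2. For *Ndufs7* both P1 values and both P2 values were above both P0 values.

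In the membrane arm, the distal part held 10 genes with sums of 463 and 519 RPKM for P0, 534 and 547 for P1 and 544 and 632 for P2. The proximal part held 9 genes with 71.6 and 154 RPKM for P0, 108 and 165 for P1 and 106 and 207 for P2. *Ndufb5*, an accessory subunit of the distal part, was the third most abundant member at 81.8 and 119 RPKM for P0, 129 and 100.3 for P1 and 137 and 112 for P2. *Ndufa13*, also known as GRIM-19 for its link to cell death induced by interferon and retinoic acid, was at 14.4 and 9.84 for P0, 16.4 and 17.1 for P1 and 4.24 and 16.2 for P2. *Ndufab1*, the mitochondrial acyl carrier protein, which also serves fatty acid synthesis, was at 62.8 and 42.6 RPKM for P0, 64.4 and 48.6 for P1 and 56.8 and 85.3 for P2. None of these 3 genes had a P1 or P2 pair that stood clear of P0 in 1 direction except *Ndufa13*, whose P1 values were both above P0.

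ALDH+ cells (P2) were compared with bulk cells (P0) to ask how this stem cell population differs from the rest of the tumor. On average the subunit mRNAs stood slightly higher in P2, with a median log2 fold change of 0.45 over the 37 genes (0.50 in tumor 1 and 0.48 in tumor 2) against 0.00 over all genes tested, and 25 of 37 were positive (67.6%, against 50.0% of all genes). For the 635 tested genes of up to 1000 bp with a mean of at least 10 RPKM, which include 23 subunit genes, the median was 0.39. Of these 635 genes 40.8% were higher in P2 in both tumors. In both tumors 15 of the 37 subunit genes were higher (40.5%, background 24.5%) and 2 were lower (5.41%, background 22.9%), and the other 20 differed in direction between tumors or were level in 1 of them. None of the 37 passed the test after adjustment over all genes (limma, lowest adjusted p = 0.985), where 0% of all genes did. At an unadjusted p under 0.05 there were 6 subunit genes (16.2%, background 3.91%), all of them higher in P2, limma voom on recovered reads called 0 subunit genes and had 3 at that unadjusted level, and limma with the tumor as a replicate block called 0 and had 7. With zero reads set to the limit of 3 reads the median was 0.45, but it could hardly have moved. That limit is under the 1 RPKM added to every value, and a median depends little on a few extreme genes. Without P0 of tumor 1 it was 0.26, where the median of all genes was -0.10, and without P2 of tumor 1 it was 0.61, where that of all genes was 0.11.

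*Ndufa8*, an accessory subunit on the intermembrane space side of the proximal arm, had the lowest p of this comparison. Its level was 8.30 and 13.5 RPKM for P0 and 40.3 and 26.0 for P2, 4.86-fold and 1.93-fold higher (log2 fold change 1.53 ± 0.44, limma unadjusted p = 0.00793, adjusted p = 0.985). *Ndufs7* followed the same order with 2.27-fold and 2.54-fold (1.16 ± 0.43, unadjusted p = 0.0275, adjusted p = 0.985). *Ndufa12*, an N module subunit related to the assembly factor Ndufaf2, was at 35.9 and 80.4 RPKM for P0 and 107 and 113 for P2, 2.99-fold and 1.40-fold higher (1.02 ± 0.40, unadjusted p = 0.0346, adjusted p = 0.985). For these 3 genes both P2 libraries lay above both P0 libraries, and reads in every library were well over the detection limit, at 98 or more. They were picked by p in this same comparison, so that order follows partly from the choice. Its share over all genes was not counted.

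The other 3 genes with a low unadjusted p rested on reads missing from P0 of tumor 1. *Ndufa5*, of the Q module, had 1 read there (0.0503 RPKM) and 19.2 RPKM in P0 of tumor 2, against 36.6 and 30.6 for P2. *Ndufa3*, a small proximal arm subunit, had 0 reads there, which allows up to 0.237 RPKM, and 10.5 RPKM in P0 of tumor 2, against 17.8 and 25.0 for P2, so that P2 was at least 75.1-fold higher in tumor 1 and 2.39-fold in tumor 2. *Ndufs5*, another proximal arm subunit and the second lowest member by mean level, had 0 reads in P0 of tumor 1 and 2.83 RPKM in P0 of tumor 2, against 16.8 and 5.78 for P2, at least 103-fold and 2.04-fold higher. All 3 were higher in P2 in both tumors, and their fitted log2 fold changes of 2.90, 2.71 and 2.49 depend on the added 1 RPKM and were 0.77, 0.95 and 1.52 without P0 of tumor 1. The bounds of 75.1-fold and 103-fold allow for counting error only. Of tested genes of up to 1000 bp, 40.5% were under 0.1 RPKM in P0 of tumor 1 and 3.70% in P0 of tumor 2, so a level of 0 there may not bound the true level. *Ndufs4*, an N module subunit whose loss causes Leigh syndrome, also had 0 reads in P0 of tumor 1, against 17.7 RPKM in P2, but was lower in P2 of tumor 2 (11.7 against 16.2 RPKM).

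At the other end, *Ndufb6*, of the distal arm, and *Ndufb9*, an accessory subunit of the same arm, were the 2 genes lower in P2 in both tumors, and neither passed the test. *Ndufb6* was at 16.2 and 38.2 RPKM for P0 and 11.5 and 24.4 for P2 (log2 fold change -0.54 ± 0.52, limma unadjusted p = 0.327), and *Ndufb9* was at 48.8 and 71.4 for P0 and 41.7 and 66.9 for P2 (-0.16 ± 0.37, unadjusted p = 0.677). *Ndufc1*, a small proximal arm subunit, had 0 reads in P2 of tumor 1, where P0 had 16.1 RPKM, a level at least 52.8-fold lower if only counting error is allowed for. It yet stood higher in P2 of tumor 2 (46.9 against 33.8 RPKM). Large shifts of opposite sign in the 2 tumors were also seen for *Ndufb2*, at 8.90-fold and 0.628-fold of P0, for *Ndufb8*, at 0.229-fold and 1.66-fold, and for *Ndufa9*, at 0.220-fold and 1.55-fold. These 3 distal arm and Q module genes were named after their values were seen.

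**Figure D3:**
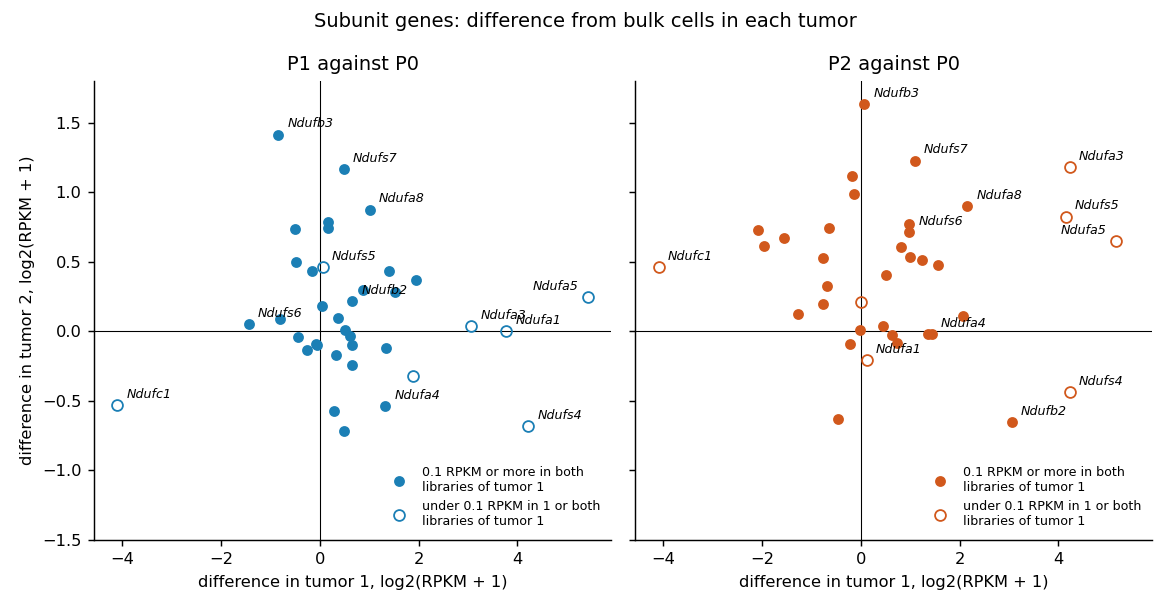
Difference of each subunit gene from P0 in tumor 1 (horizontal axis) and tumor 2 (vertical axis), both as log2(RPKM + 1), for P1 on the left and P2 on the right. Open circles are genes under 0.1 RPKM in 1 or both of the tumor 1 libraries compared, and some genes are named. In the P2 panel 15 genes lie in the upper right corner and 2 in the lower left, and in the P1 panel 16 and 5. The axes differ in scale because tumor 1 differences reach 5.43 and tumor 2 differences 1.63.

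CD29hi CD61+ cells (P1) were compared with the same P0 libraries, so that both comparisons share them. The subunit mRNAs again stood slightly higher, mainly in tumor 1, with a median log2 fold change of 0.28 (0.49 in tumor 1 and 0.05 in tumor 2) against 0.12 over all genes tested. In the class of up to 1000 bp with a mean of at least 10 RPKM the median was 0.21, and 29.8% of its genes were higher in P1 in both tumors. Of the 37 subunit genes 28 were positive (75.7%, against 59.8% of all genes), 16 were higher in both tumors (43.2%, background 29.2%) and 5 were lower in both (13.5%, background 17.6%). None passed the test after adjustment (limma, lowest adjusted p = 1.00), where 0% of all genes did. At an unadjusted p under 0.05 there were 2 (5.41%, background 1.89%), both higher in P1, limma voom on recovered reads called 0 and had 2 at that level, and limma with the tumor as a replicate block called 0 and had 4 (429 over all genes, against 237 without the block). Without P0 of tumor 1 the median was 0.08 (0.04 over all genes), and without P0 of tumor 2 it was 0.50 (0.18 over all genes). Without P1 of tumor 2 it was 0.13, under the 0.14 over all genes.

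The 2 genes were *Ndufa5* and *Ndufb10*. *Ndufa5* was at 44.2 and 23.0 RPKM for P1 (log2 fold change 2.84 ± 1.14, limma unadjusted p = 0.0365, adjusted p = 1.00) and 0.70 without P0 of tumor 1, where it had 1 read. *Ndufb10*, of the distal arm, was at 13.0 and 28.4 RPKM for P0, 53.2 and 37.0 for P1 and 26.5 and 49.2 for P2, which puts P1 at 4.09-fold and 1.30-fold of P0 (1.16 ± 0.48, unadjusted p = 0.0425, adjusted p = 1.00). The next by p were *Ndufa12*, at 96.3 and 109 RPKM for P1 (0.92 ± 0.40, unadjusted p = 0.0509), *Ndufa8*, at 17.7 and 25.6 (0.94 ± 0.44, unadjusted p = 0.0629), and *Ndufs7* (0.83 ± 0.43, unadjusted p = 0.0918). For *Ndufb10*, *Ndufa12*, *Ndufa8* and *Ndufs7* both P1 libraries lay above both P0 libraries. These genes were picked by p in this same comparison, so that order follows partly from the choice. Its share over all genes was not counted.

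Among genes with 1 direction in both tumors, *Ndufa3* and *Ndufa1*, both of the proximal arm, had log2 fold changes of 1.55 ± 1.00 and 1.89 ± 1.51 in P1. Both had 0 reads in P0 of tumor 1. By bounds that allow for counting error only, P1 of tumor 1 was at least 31.2-fold and 75.6-fold higher there, at 7.40 and 12.7 RPKM. In tumor 2 they hardly differed, at 10.8 against 10.5 RPKM for *Ndufa3* and 17.7 against 17.6 for *Ndufa1*. The lowest were *Ndufc1* (-2.31 ± 1.85), with 0 reads in P1 of tumor 1 and 23.0 against 33.8 RPKM in tumor 2, *Ndufs3* (-0.24 ± 0.42) and *Ndufa11* (-0.20 ± 0.65, at 4.36 and 2.65 RPKM for P0 and 3.46 and 2.32 for P1). None of these passed the test at the unadjusted level, and the unadjusted p ran from 0.158 to 0.763 (limma).

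Set against each other, the stem cell populations showed subunit mRNAs slightly lower in P1 than in P2. The median log2 fold change of P1 against P2 was -0.12 (0.07 in tumor 1 and -0.23 in tumor 2), where that of all genes tested was 0.11, and 14 of 37 genes were positive (37.8%, against 58.9% of all genes). In the class of up to 1000 bp with a mean of at least 10 RPKM the median was -0.13, and 14.0% of its genes were higher in P1 in both tumors. Lower in P1 in both tumors were 13 subunit genes (35.1%, background 21.5%) and higher in both were 4 (10.8%, background 31.0%). None passed the test after adjustment (limma, lowest adjusted p = 1.00), where 0% of all genes did, and 1 had an unadjusted p under 0.05 (2.70%, background 2.49%). Limma voom on recovered reads called 0 and had 1 at that level, and limma with the tumor as a replicate block called 0 and had 2. Leaving out the tumor 2 library of P2 or of P1 moved the median to -0.02 or -0.05, and leaving out the tumor 1 library of P2 moved it to -0.18.

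That gene was *Ndufs6*, a zinc-binding subunit needed late in the assembly of the N module. It was at 24.6 and 20.2 RPKM for P0, 8.46 and 20.9 for P1 and 49.5 and 33.8 for P2, so P1 was at 0.171-fold and 0.620-fold of P2 (log2 fold change -1.54 ± 0.48, limma unadjusted p = 0.0118, adjusted p = 1.00). *Ndufs5* was also lower in P1, with 1 read in tumor 1 (0.0409 RPKM, against 16.8 in P2) and 4.28 against 5.78 RPKM in tumor 2 (-2.23 ± 1.02, unadjusted p = 0.0597). *Ndufa3* had -1.15 ± 1.00 and *Ndufa8* -0.58 ± 0.44, with unadjusted p of 0.280 and 0.219. Higher in P1 in both tumors were *Ndufa1* (1.94 ± 1.51, with 1 read in P2 of tumor 1), *Ndufa13* (0.90 ± 0.61) and *Ndufa10*, a proximal arm subunit related to nucleoside kinases, at 24.0 and 31.0 RPKM for P1 and 12.3 and 24.8 for P2 (0.61 ± 0.59). The fourth was *Ndufb9*, and the unadjusted p of these 4 ran from 0.175 to 0.334 (limma).

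Scatter between tumors was as large as the differences between populations. Within P0, the median absolute log2 difference of a subunit gene between tumors was 0.83, with 16 of 37 genes over 1, and it was 0.42 within P1 and 0.68 within P2. The corresponding difference of P2 from P0 was 0.98 in tumor 1 and 0.52 in tumor 2, and that of P1 from P0 was 0.65 and 0.28. Tumor 2 was the quieter of the pair, with 2 genes over 1 for P1 against P0 (*Ndufb3* at 1.42 and *Ndufs7* at 1.17) and 4 for P2 against P0 (*Ndufb3* at 1.63, *Ndufs7* at 1.23, *Ndufa3* at 1.18 and *Ndufa2* at 1.12), where tumor 1 had 13 and 17.

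By module, the median log2 fold change of P2 against P0 was 0.72 over the 10 N module genes (9 positive), 0.67 over the 6 Q module genes (5 positive), -0.04 over the 9 proximal arm genes (4 positive) and 0.16 over the 10 distal arm genes (5 positive). Of all genes tested 50.0% were positive. In P1 against P0 the same medians were 0.21, 0.45, 0.45 and 0.25. In tumor 2 alone, where few reads were missing, the P2 medians were 0.44, 0.63, 0.52 and 0.17, so that the proximal arm stood above the N module there. The summed RPKM of each module was higher in P2 than in P0 in both tumors, as given above, but a sum can rest on 1 gene. In the distal arm of tumor 1, *Ndufb2* went from 13.2 RPKM in P0 to 118 in P2, a larger rise than that of the whole sum. In tumor 2 it went from 45.8 down to 28.7. The modules were not tested against each other.

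Subunit genes are short, and short genes as a class leaned the same way. The median subunit gene is 711 bp long, where the median gene of the table has 2904 bp. Over all tested genes the median log2 fold change of P2 against P0 was lower the longer the class, from 0.24 for genes of up to 1000 bp, through 0.15 for the next class, up to 2000 bp, and -0.01 for the one up to 4000 bp, to -0.11 for longer genes. For the 635 genes of up to 1000 bp with a mean of at least 10 RPKM, which include 23 subunit genes, it was 0.39, where those 23 had 0.47. Of the 635 genes 40.8% were higher in P2 than in P0 in both tumors, beside 40.5% of the 37 subunit genes. For P1 against P0 the same shares were 29.8% and 43.2%, and for P1 against P2 14.0% and 10.8%. In P1 against P0 the 635 genes had a median of 0.21 and the 23 subunit genes 0.26, and in P1 against P2 the medians were -0.13 and -0.12. The subunit shares cover all 37 genes, whereas the subunit medians cover only the 23 in the class. Counted so, the shares lay apart for P1 against P0 and close together for the other comparisons. The part of length and level in these values was not tested.

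**Figure D4:**
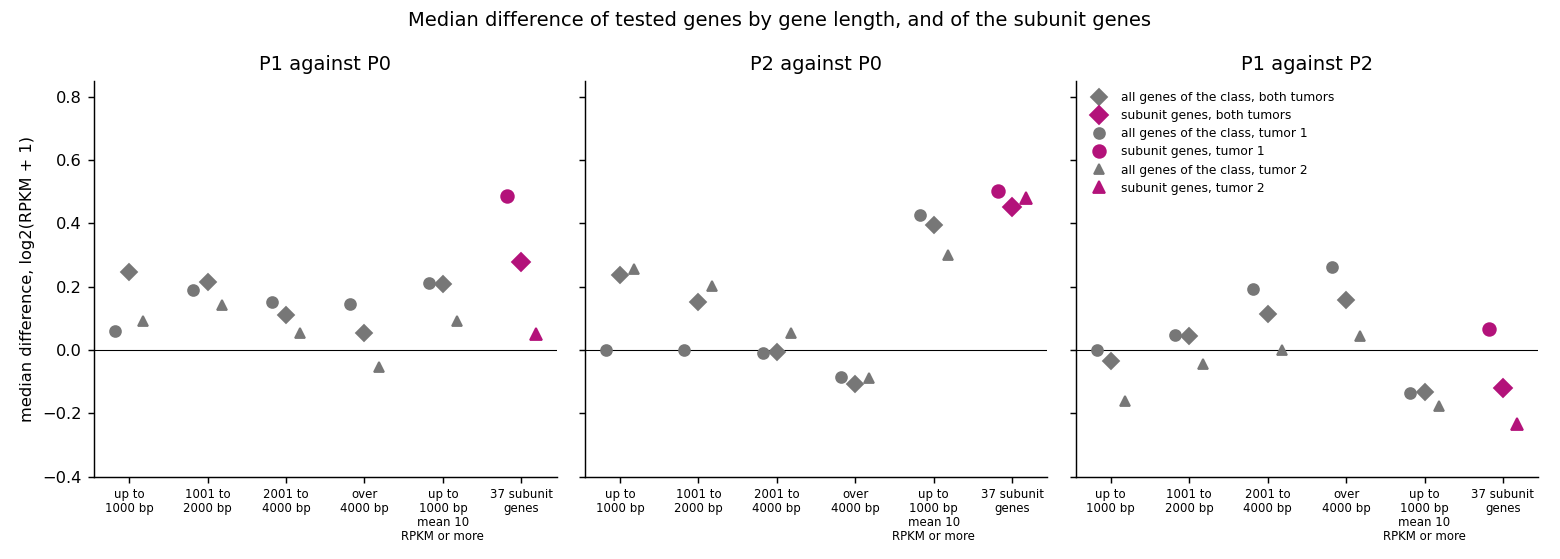
Median log2(RPKM + 1) difference of all tested genes by length class (grey) and of the 37 subunit genes (magenta) for each comparison, with diamonds for both tumors, circles for tumor 1 and triangles for tumor 2. The class of up to 1000 bp with a mean of at least 10 RPKM lies at 0.39 for P2 against P0, beside 0.45 for the subunit genes.

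The rest of the respiratory chain was read from lists of its nuclear genes, and no gene of these lists passed the adjusted test in any comparison (limma). The 4 genes of complex II, succinate dehydrogenase, were all higher in P2 than in P0 in both tumors (background 24.5%). Their median log2 fold change was 0.76, and 1 gene had an unadjusted p under 0.05 (background 3.91%). This was *Sdhc*, a membrane anchor, at 30.9 and 24.6 RPKM for P0, 20.3 and 30.1 for P1 and 52.4 and 49.3 for P2 (0.86 ± 0.36, unadjusted p = 0.0412). It was also lower in P1 than in P2 (-1.01 ± 0.36, unadjusted p = 0.0212). *Sdhb*, the iron-sulfur subunit, was at 23.8 and 42.0 RPKM for P0 and 50.8 and 60.1 for P1 (0.78 ± 0.42, unadjusted p = 0.101).

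The median log2 fold change of P2 against P0 was -0.16 over 9 genes of complex III (3 positive), 0.44 over 10 of complex IV (7 positive) and 0.03 over 15 of ATP synthase (9 positive). Of all genes tested 50.0% were positive. All 3 medians differed in sign between tumors, at -0.41 and 0.25 for complex III, 0.42 and -0.08 for complex IV and -0.18 and 0.15 for ATP synthase. In P1 against P0 the pooled medians were 0.03, -0.16 and 0.11. *Atp5j2*, a membrane subunit of ATP synthase, was at 55.9 and 72.9 RPKM for P0, 86.9 and 72.3 for P1 and 160 and 135 for P2, which was higher in P2 than in P0 (1.19 ± 0.31, limma unadjusted p = 0.00477, adjusted p = 0.985). *Atp5h*, a subunit of the enzyme's peripheral stalk, was at 43.8 and 77.6 for P0, 116 and 148 for P1 and 140 and 86.3 for P2 (P1 against P0, 1.15 ± 0.40, unadjusted p = 0.0188). Both genes had their P1 or P2 pair above both P0 values, which follows partly from their choice by p. *Uqcr10*, of complex III, was at 2.94 and 26.2 RPKM for P0 and 37.4 and 21.6 for P1 (1.51 ± 0.83), and *Cox7a2*, of complex IV, at 12.3 and 19.1 for P1 and 68.0 and 38.7 for P2 (-1.68 ± 0.51, unadjusted p = 0.0104).

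Of 21 listed assembly factors of complex I 17 were tested, with a median log2 fold change against P0 of 0.31 (P1) and 0.17 (P2). *Ndufaf4* had the lowest p, at 0 and 2.89 RPKM for P0, 3.74 and 3.48 for P1 and 21.0 and 3.53 for P2, so that a single library, P2 of tumor 1, stood apart (2.34 ± 0.94, limma unadjusted p = 0.0371). Among 10 tested regulators of nuclear respiratory genes the median was 0.02 in P1 and -0.28 in P2. *Esrra*, which encodes the estrogen-related receptor alpha, an activator of respiratory genes, was at 0.887 and 3.37 RPKM for P0, 2.16 and 4.24 for P1 and 11.8 and 6.75 for P2, with both P2 values above all others (1.79 ± 0.70, unadjusted p = 0.0318, adjusted p = 0.985). It was picked by p as well, so that order follows partly from the choice. The last list held 12 genes that make or use NADH or pass electrons toward ubiquinone. Among them were *Mdh2*, *Idh3a*, *Pdha1* and *Dld*. The median of that list was 0.32 for P1 and -0.06 for P2.

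Short motifs known from nuclear respiratory genes were found in the promoters of 16 subunit genes, and 17 others with a promoter window held none. The promoters of 4 genes named above are shown for the reader to compare. RefSeq promoter windows on GRCm38.p6, of 250 bases before and 50 after the start of a transcript, were found for 33 of the 37 genes (35 windows). Searched on both strands, the letters GCGCANGCG (the NRF1 core) were in 9 of the 35 windows (25.7%), against 6.25% of all 32851 windows, AAGATGGCG (YY1) was in 5 (14.3%, against 1.40%), CCGGAAG (the ETS core bound by GABP) in 4 (11.4%, against 8.86%) and TCAAGGTCA (ERR) in 0 (against 0.423%). No window held overlapping matches of different motifs. The GCGCANGCG windows belonged to *Ndufa5*, *Ndufa6*, *Ndufa8*, *Ndufa11*, *Ndufb4*, *Ndufb10*, *Ndufs5* and *Ndufs6*, and the AAGATGGCG windows to *Ndufa9*, *Ndufc1*, *Ndufs4*, *Ndufs6* and *Ndufs7*. Of the 6 genes that were among the 5 with the lowest p against P0 in P1 or P2, those with a motif were *Ndufa8*, *Ndufa5*, *Ndufb10* and *Ndufs7*. Of all 33 genes with a window 16 held a motif, and a link of the motifs to p was not tested. Their last 150 bases, 100 before the start and 50 after it, are printed from 5′ to 3′ along the gene with the motif in capitals.
Ndufa8 (chr2:36049289-36049438, minus strand): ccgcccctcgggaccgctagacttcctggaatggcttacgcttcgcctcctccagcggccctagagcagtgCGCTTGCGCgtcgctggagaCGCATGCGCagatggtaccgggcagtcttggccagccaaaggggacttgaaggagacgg
Ndufa5 (chr6:24527641-24527790, minus strand): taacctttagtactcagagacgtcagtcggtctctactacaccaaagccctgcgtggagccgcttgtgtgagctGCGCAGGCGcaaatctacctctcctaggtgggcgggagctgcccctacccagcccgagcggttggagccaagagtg
Ndufb10 (chr17:24724374-24724523, minus strand): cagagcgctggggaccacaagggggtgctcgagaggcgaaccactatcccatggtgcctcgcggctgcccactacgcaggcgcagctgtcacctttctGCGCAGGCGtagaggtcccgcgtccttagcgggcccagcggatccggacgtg
Ndufs7 (chr10:80249349-80249498, plus strand): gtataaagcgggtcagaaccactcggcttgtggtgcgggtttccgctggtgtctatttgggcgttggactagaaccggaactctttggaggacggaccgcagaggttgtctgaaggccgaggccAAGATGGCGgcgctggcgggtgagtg

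*Ndufa8* holds the NRF1 core 2 times on the opposite strand, with first bases at -29 and -9 from the start, *Ndufa5* 1 time at -26, and *Ndufb10* 1 time across the start from -2. *Ndufs7* holds the YY1 letters at +25. The level of *Nrf1* itself was 8.20 and 5.46 RPKM for P0, 7.07 and 6.62 for P1 and 4.66 and 6.22 for P2, and that of *Yy1* was 34.9 and 46.9, 28.5 and 41.7, and 48.6 and 41.9, with neither past the unadjusted level in P1 or P2 against P0 (limma, unadjusted p of 0.545 to 0.965). A match of letters is a description and not a binding site, and binding was not measured in these cells.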

How the data were processed

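Poly(A) RNA of the 6 sorted populations was sequenced, and the authors deposited a table of 14897 genes with RPKM, that is reads scaled by gene length and by each library's reads in genes. For P1 and P0 alone the deposited columns also give the authors' group means as a normalized signal, together with their own comparison (a ratio of the means, the log2 of that ratio, and raw and adjusted p-values), which was not used. The header names no unit, so units were read from the values, and the aligner, annotation and build are not given in the sources used here. Gene lengths came from the ratio of RPKM to the group means, and reads recovered from the RPKM were whole to within 0.01 reads for 14896 genes (100%). How reads were shared with the annotated near-copies of *Ndufa11*, *Ndufa12*, *Ndufab1*, *Ndufb4*, *Ndufs5* and *Ndufs6* is not given, so these levels are uncertain.

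Because the values were RPKM, genes were kept where 2 or more libraries reached 1 RPKM (12512 genes), and their log2(RPKM + 1) was tested with the trended method of limma 3.58.1 under R 4.3.3, with all 6 libraries in 1 model without a block and Benjamini-Hochberg adjustment over all genes at 0.05. The procedure was tested on simulated data with normal noise and changes far larger than the subunit medians. That test does not show whether differences as small as those medians would be called. Depth is 19037070 to 48008802 reads, and the limit for 0 reads is 3 reads, which covers counting error only. Samples with the same number come from the same tumor, so the numbers pair them (correlations of deviations 0.185, 0.211 and 0.242). Members, lists and tests were chosen with earlier results of these data known, and genes were named by rule (core subunits, *Ndufa4*, *Ndufab1*, *Ndufa13*, highest and lowest means, lowest p and extreme fold changes with 1 direction), except 1 that is not reported here. Alternatives were a pseudocount of 0.1, no filter, median-ratio scaling, the tumor as a replicate block, limma voom on recovered reads and leaving out each library. Tables and figures used Python 3.11.15, numpy 2.4.6, pandas 2.3.3 and matplotlib 3.10.9.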

Additional observations from a re-analysis of the deposited data

How the results depend on the processing

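No subunit gene passed the adjusted threshold under any alternative, in any comparison. The median log2 fold change of the subunit genes kept its sign under every alternative that used both tumors. For P2 against P0 it was 0.67 with limma voom on recovered reads, 0.47 with voom and the replicate block, 0.50 in tumor 1 alone and 0.48 in tumor 2 alone (the last pair chosen after seeing the data), and 0.26 to 0.61 when each library was left out. For P1 against P0 leaving out a library gave 0.08 to 0.50 and for P1 against P2 -0.18 to -0.02. In tumor 1 alone and tumor 2 alone the median was 0.49 and 0.05 for P1 against P0. For P1 against P2 it was 0.07 and -0.23, so that the sign differed between tumors there. The replicate block left the fold changes as they were and changed no call of a subunit gene, and the subunit genes at an unadjusted p under 0.05 went from 2 to 4 (P1) and from 6 to 7 (P2) against P0 and from 1 to 2 for P1 against P2. Over all genes, limma called 0 in each comparison, voom called 9 for P1 and 1 for P2 (each against P0) and 7 between P1 and P2, voom with the replicate block 3, 6 and 11, and for P2 against P0 the replicate block in limma called 3 and a pseudocount of 0.1 called 2. Leaving out P0 of tumor 2 gave 1 call for P2 against P0, and leaving out P2 of tumor 2 gave 40 there and 55 for P1 against P2, with 0 when other libraries were left out.

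All 25 named fold changes kept their direction in every alternative with all libraries, and 18 of them also with each library left out. Those that turned were, for P1 against P0, *Ndufa3* (-0.21 to 3.31 over the libraries left out), *Ndufa1* (-0.22 to 4.0) and *Ndufs3* (-0.66 to 0.19), each turning without P0 of tumor 1, and *Ndufa11* (-0.48 to 0.076, turning there and, at 0.012, without P1 of tumor 2). For P2 against P0 they were *Ndufb6* (-1.14 to 0.051, turning without P0 of tumor 2) and *Ndufb9* (-0.49 to 0.18, turning without P2 of tumor 1 and, at 0.11, without P0 of tumor 2), and between P1 and P2 *Ndufa1* (-0.011 to 3.88, turning without P2 of tumor 1). The cause was not tested. Without *Ndufa4* the summed RPKM was 1052 and 1135 for P0, 1235 and 1259 for P1 and 1340 and 1558 for P2. The 11 values at 1 read or none were all in tumor 1, although each of its libraries held more reads than that of the same population in tumor 2. Why they were so low was not tested.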
